A study of Mus musculus with 21 samples.

Results

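Fibroblasts cultured from mammary carcinomas (CAF, given vehicle) were compared with fibroblasts from normal mammary gland that had received TGFb1 (NF with TGFb1), 3 libraries against 3, across all genes. These 6 libraries were picked by their labelled line, siRNA and treatment out of 21 libraries in the series, and no measured value entered the choice. The comparison asked which features of carcinoma fibroblasts are not reached when normal fibroblasts are exposed to TGFb1.

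The CAF group was the line CAF1, from mammary tumours of MMTV-PyMT mice, in which a mammary tumour virus promoter drives polyoma middle T antigen mainly in mammary epithelium. NF with TGFb1 was the line NF1, from normal glands of FVB/n mice, kept in 5 ng/mL TGFb1 for 43 h. NF with vehicle, the same line without the cytokine, had 3 libraries and is given beside both groups. All 9 libraries received a control siRNA at 100 nM, and RNA was taken 48 h after transfection. Another 12 libraries, CAF and NF with TGFb1 under siRNA against Hsp90aa1 or Hsp90ab1, which encode the stress-inducible and the constitutive cytosolic HSP90, gave the same contrast in libraries of its own. Each origin was represented by 1 numbered line, so carcinoma origin and differences between any pair of lines cannot be told apart. The labels do not say whether the 3 replicates came from separate cultures, so p-values measure only the spread between these samples, which may be technical.

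TGFb1 binds a pair of serine/threonine kinase receptors, and the receptors phosphorylate SMAD proteins that enter the nucleus and drive both effector genes and feedback inhibitors. In fibroblasts it is the textbook inducer of the myofibroblast state, with contractile fibres, collagen and crosslinking enzymes. Carcinoma-associated fibroblasts often carry myofibroblast genes, but can also differ from normal fibroblasts in patterning, hormone receptor and interferon genes.

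Depth was 35087180 to 70421576 counts per CAF library, 37402932 to 53887400 counts per NF library with TGFb1 and 41467713 to 59358741 counts per NF library with vehicle. The mitochondrial share was 1.695 to 1.871% in CAF, 1.927 to 2.806% in NF with TGFb1 and 2.19 to 4.3% in NF with vehicle. CAF replicates 1 and 3 were the least alike pair, and several genes below differ widely among the CAF replicates, so values are given for replicates 1, 2 and 3 in turn. Of 12 fibroblast markers 10 were higher and 1, Dcn, lower in CAF than in NF with TGFb1, and Vim, an intermediate filament, was at 3547 to 4073 CPM (counts scaled to a common library total) in CAF and 1930 to 1970 CPM in NF with TGFb1. The usual fibroblast markers Fap and Lum were near absent in both lines, Fap at no more than 1.24 CPM and Lum at no more than 0.707 CPM in any library. Epcam, Krt5, Cdh1 and Elf5 of epithelium, Ptprc, Cd3e and Tyrobp of leukocytes and Pecam1 and Cldn5 of endothelium stayed below 0.3 CPM in all 6 libraries. Of 10 epithelial markers 3 had enough counts to be tested, and in this and the next sums only tested markers entered. The sum was 5.143 to 22.04 CPM in CAF, 0.7848 to 1.164 CPM in NF with TGFb1 and 0.2288 to 0.4492 CPM in NF with vehicle. No untested epithelial marker averaged over 0.109 CPM across the 6 libraries. Nearly all of the CAF sum was Krt19, a keratin, at 5.03, 13.4 and 22 CPM (log2 fold change 8.19 ± 0.74, adjusted p = 2.7e-08). Another keratin, Krt14, went the other way (log2 fold change -4.50 ± 0.49, adjusted p = 3.26e-07). Its level was at most 0.0577 CPM in CAF and 0.688 to 0.982 CPM in NF with TGFb1. The 6 tested of 8 endothelial markers summed to 6.362 to 10.31 CPM in CAF, 115.9 to 120.7 CPM in NF with TGFb1 and 93.11 to 98.35 CPM in NF with vehicle. Of these sums Eng, a TGFb co-receptor that fibroblasts also make, supplied 1.85 to 3.27 CPM in CAF and 115 to 120 CPM in NF with TGFb1. Kdr, a VEGF receptor of endothelium, ran the other way, at 2.94, 3.89 and 6.02 CPM in CAF and at most 0.111 CPM in NF with TGFb1 (log2 fold change 5.71 ± 0.63, adjusted p = 3.57e-07). The 3 tested of 9 immune markers summed to 12.95 to 17.16 CPM in CAF, 14.66 to 16.13 CPM in NF with TGFb1 and 13.77 to 18.99 CPM in NF with vehicle. Most of this was Cd14, a lipopolysaccharide co-receptor, at 9.03 to 11.4 CPM in CAF and 9.03 to 9.06 CPM in NF with TGFb1. Of the other immune markers tested, Csf1r was at 1.74 to 2.97 CPM in CAF and 3.95 to 5.49 CPM in NF with TGFb1 and passed as lower (log2 fold change -1.0, adjusted p = 0.00322), and Cd68 was at 2.18 to 2.84 CPM in CAF and 1.6 to 1.67 CPM in NF with TGFb1 (adjusted p = 0.0556; 0.0238 with the replicate block, 0.042 with DESeq2 and 0.0365 with the 6 libraries alone). The summed level of the 3 tested of 6 pericyte markers was 13.71 to 24.45 CPM in CAF, 7.372 to 13.97 CPM in NF with TGFb1 and 9.029 to 15.31 CPM in NF with vehicle. Most of it was Notch3, at 7.99, 12.5 and 21.7 CPM in CAF against 4.69, 6.91 and 9.42 CPM in NF with TGFb1 (log2 fold change 1.01, adjusted p = 0.0267), and Mcam, at 2.39 to 5.6 CPM in CAF and 2.35 to 4.03 CPM in NF with TGFb1 (adjusted p = 0.29; 0.0472 without CAF replicate 3). The Notch3 call was lost without CAF replicate 3 or NF with TGFb1 replicate 1 or 2 (adjusted p 0.0664 to 0.231) and with the 6 libraries alone (0.0516). The part of these markers in the results was not tested.

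A gene passed when its adjusted p was under 0.05 in edgeR's quasi-likelihood test over 15230 tested genes, and fold changes are CAF over NF with TGFb1 on the log2 scale. Between CAF and NF with TGFb1, 8972 genes passed, 58.9% of those tested: 4573 were higher in CAF (30%) and 4399 lower (28.9%). With a change of more than 2-fold as well, 2215 were higher (14.5%) and 1523 lower (10%), together 24.5% of genes. The 3 CAF libraries did not overlap the 3 treated NF libraries in 4902 genes where CAF was higher (32.2%) and 4892 where CAF was lower (32.1%). NF with TGFb1 differed from NF with vehicle in 4410 genes (29%), 724 of them higher by more than 2-fold (4.75%) and 669 lower by more than 2-fold (4.39%), out of 14.6% higher and 14.4% lower at any size. CAF differed from NF with vehicle in 9378 genes (61.6%; 31.6% higher and 30% lower), with 2282 higher (15%) and 1614 lower (10.6%) by more than 2-fold, together 25.6%. These bulk values cannot tell a smaller fraction of expressing cells from less RNA per cell.

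**Figure D1:**
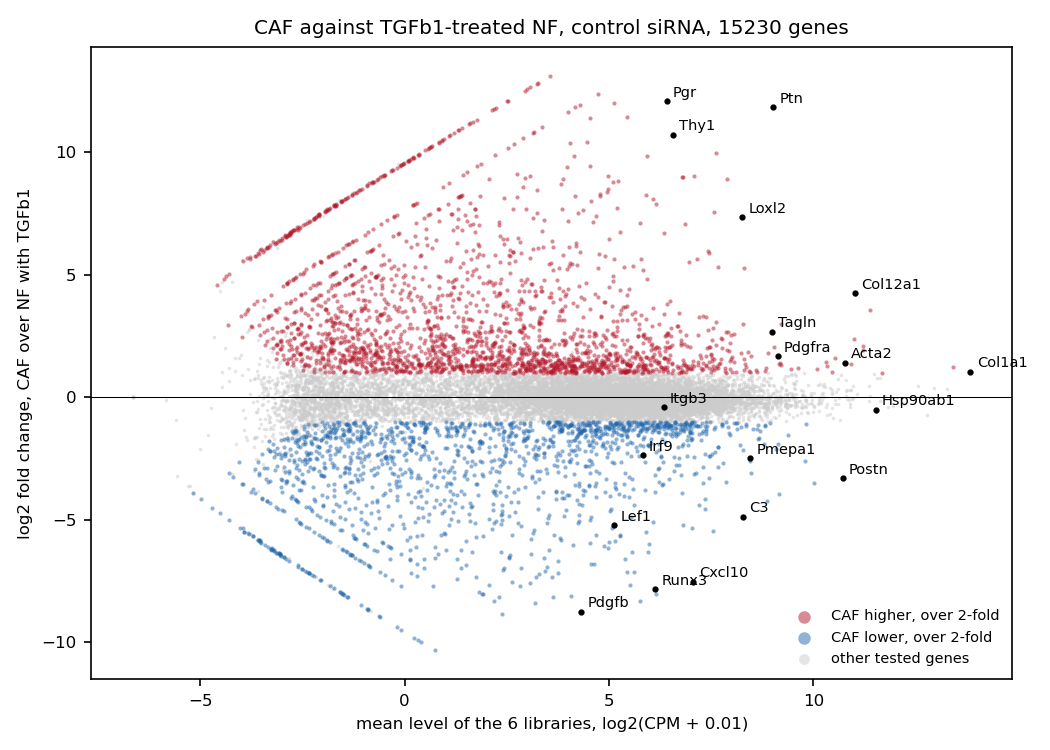
Each point is a tested gene, with the mean level of the 6 libraries on the x axis, log2(CPM + 0.01), and the log2 fold change of CAF over NF with TGFb1 on the y axis; red and blue points passed by more than 2-fold in either direction. The straight rims at the left are genes with 0 counts in one group, whose fitted fold depends on the prior count, and Pgr, Ptn and Thy1 stand at the top while Pdgfb and Runx3 stand at the bottom.

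The labelled batch is the replicate number, and the signs within each batch are given as a description, since the genes were chosen in these same libraries and the choice largely fixes them. Of the 2215 genes higher in CAF, 2211, 2208 and 2202 were higher in replicates 1, 2 and 3 taken alone, and of the 1523 lower genes 1516, 1520 and 1521 were lower. A batch held 1 library of each group, so no test could be made within it.

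The question itself fixes one count, in which the same CAF libraries stand on both sides, so it is a description and not a result. Of the 2282 genes higher in CAF than in NF with vehicle by more than 2-fold, 1970 (86.3%) were also higher in CAF than in NF with TGFb1, 53 (2.32%) were lower and 259 (11.3%) did not pass. For 224 of them (9.82%) the 95% interval of the difference from NF with TGFb1 lay within 2-fold either way. Of the 1614 genes lower in CAF than in NF with vehicle, 1314 (81.4%) were also lower than in NF with TGFb1, 22 (1.36%) were higher and 278 (17.2%) did not pass.

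Among 25 TGFb targets and feedback genes, 12 were lower and 7 higher in CAF than in NF with TGFb1. The list's median log2 fold change was -0.52, against -0.01 over all tested genes, while its median was 0.92 for CAF over NF with vehicle and 1.48 for NF with TGFb1 over NF with vehicle. The lower genes included several feedback inhibitors, but not every member of this kind was lower. Ski and Smad6, relatives of Skil and Smad7, did not pass (log2 fold change -0.08 and 0.29, adjusted p = 0.33 and 0.246), and the decoy receptor Bambi was higher. Pmepa1, which limits SMAD signalling, was at 152, 113 and 57.7 CPM in CAF, 583, 551 and 651 CPM in NF with TGFb1 and 30.1, 28.1 and 22.4 CPM in NF with vehicle. The CAF libraries lay between the other 2 groups without overlap, and the log2 fold change was -2.46 ± 0.32 (SE; adjusted p = 2.86e-06). Skil, a nuclear repressor of SMADs, was at 49.3, 40.8 and 30.9 CPM in CAF, 175, 162 and 162 CPM in NF with TGFb1 and 35.1, 32 and 28.2 CPM in NF with vehicle. All CAF libraries were far below NF with TGFb1, and 1 of the 3 was within the vehicle range (log2 fold change -2.04 ± 0.19, adjusted p = 3.14e-08). Fstl3, a secreted activin antagonist, was at 12.2, 10.8 and 10.8 CPM in CAF, against 44.9, 42.9 and 48 CPM in NF with TGFb1 and 12.9, 14.5 and 12 CPM in NF with vehicle (log2 fold change -2.01 ± 0.10, adjusted p = 1.45e-11). Smad7, the inhibitory SMAD, was lower by the smaller log2 fold change of -0.85 ± 0.21 (adjusted p = 0.00215).

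Among the list's transcription factors, Junb had a log2 fold change of -2.38 ± 0.30, Bhlhe40 of -1.74 ± 0.12 and Snai1 of -1.10 ± 0.09, and Tgfb1 itself was lower by -1.17 ± 0.17. Snai1, a repressor known from epithelial-mesenchymal transition, was at 79.8, 86.7 and 70 CPM in CAF, 162, 166 and 180 CPM in NF with TGFb1 and 61.1, 59.4 and 54.4 CPM in NF with vehicle. Its relative Snai2 was higher (log2 fold change 1.48 ± 0.14), at 76.9, 79.3 and 91.1 CPM in CAF, 28, 27 and 33.5 CPM in NF with TGFb1 and 60, 38.8 and 45.2 CPM in NF with vehicle. Id1, an inhibitor of helix-loop-helix factors, was also higher, at 54.6, 60.4 and 45.9 CPM in CAF and 27.8, 39.5 and 31.2 CPM in NF with TGFb1 (log2 fold change 0.71 ± 0.17, adjusted p = 0.00163). For Snai1, Snai2 and Id1 no CAF library overlapped NF with TGFb1.

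Lrrc15, a membrane protein known as a marker of TGFb-driven carcinoma myofibroblasts, was the clearest member on the higher side. It was at 168, 73.8 and 40.2 CPM in CAF, 2.42, 2 and 2.56 CPM in NF with TGFb1 and 0.0662, 0.135 and 0.0763 CPM in NF with vehicle (log2 fold change 5.34 ± 0.60). Nox4, an NADPH oxidase, and Bambi, a decoy receptor, were higher by log2 fold changes of 1.88 ± 0.19 and 2.02 ± 0.32. For 6 members no difference passed, and several of these varied widely within CAF. Ctgf, a matricellular growth factor now also called Ccn2, was at 124, 51 and 9.78 CPM in CAF, 164, 117 and 83.6 CPM in NF with TGFb1 and 4.96, 4.96 and 3.47 CPM in NF with vehicle, so the groups overlapped (log2 fold change -0.98 ± 0.67, adjusted p = 0.224; with the replicate block adjusted p = 0.0223). Il11, a profibrotic cytokine, likewise passed only with the replicate block (adjusted p = 0.157 without and 0.00391 with it).

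**Figure D2:**
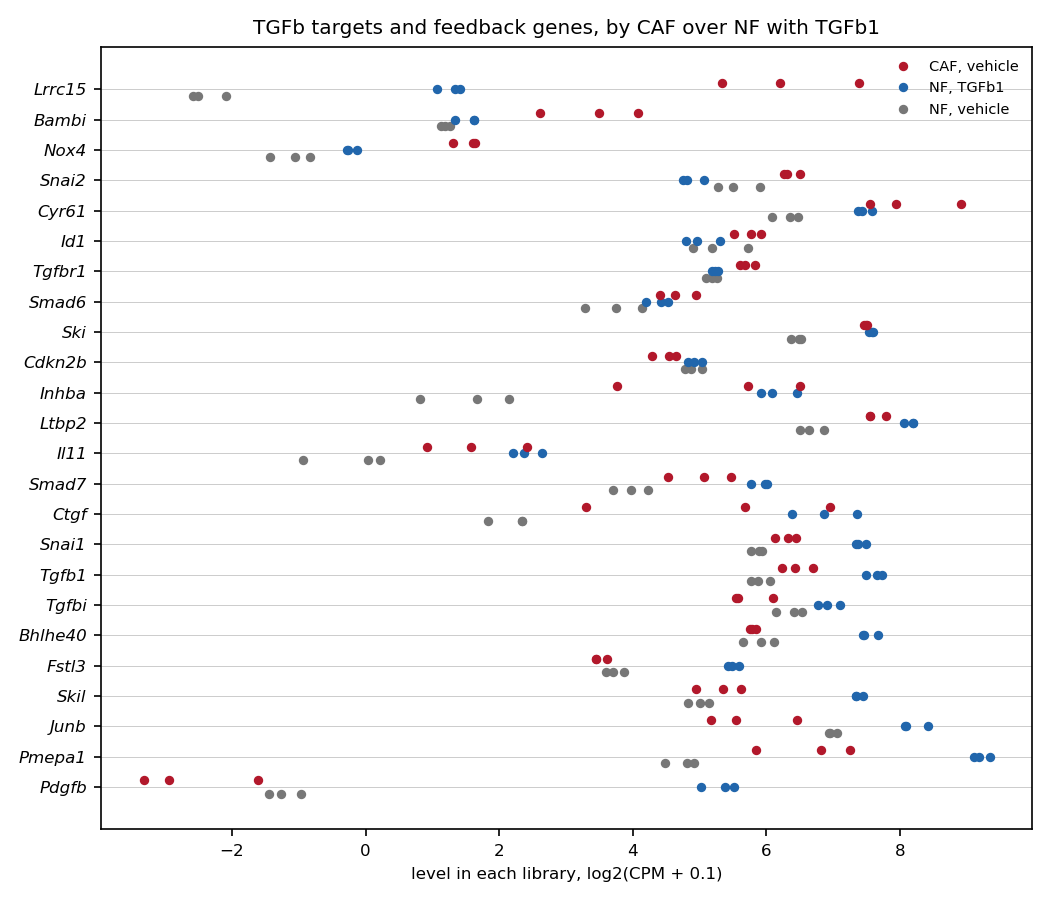
TGFb targets and feedback genes, 24 of the 25, one per line, with the level in each library on the x axis as log2(CPM + 0.1): CAF in red, NF with TGFb1 in blue, NF with vehicle in grey. Genes are ordered by the CAF over NF with TGFb1 fold change, and in Fstl3 and Skil the CAF points sit near the vehicle points.

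The contractile programme showed the opposite balance. Of 19 tested smooth muscle contractile genes (of 20 listed), 13 were higher and 3 lower in CAF than in NF with TGFb1, with a median log2 fold change of 1.26. The list's medians were 2.70 for CAF over NF with vehicle and 1.07 for NF with TGFb1 over NF with vehicle. Tagln, an actin-binding protein of smooth muscle, was at 1110, 859 and 668 CPM in CAF, 131, 128 and 151 CPM in NF with TGFb1 and 13.5, 17.6 and 14.9 CPM in NF with vehicle. Every CAF library was above every treated NF library, which in turn was above every vehicle library (log2 fold change 2.69 ± 0.19, adjusted p = 1.27e-09). Acta2, smooth muscle actin and the usual myofibroblast marker, was at 2810, 2530 and 2310 CPM in CAF, 784, 978 and 1090 CPM in NF with TGFb1 and 110, 140 and 124 CPM in NF with vehicle (log2 fold change 1.42 ± 0.20). Cnn1, a calponin, was at 189, 178 and 166 CPM in CAF against 18.3, 24.7 and 27.6 CPM in NF with TGFb1 (log2 fold change 2.92 ± 0.18). Myl9, the regulatory light chain of smooth muscle myosin, was at 581, 454 and 375 CPM in CAF, 147, 155 and 173 CPM in NF with TGFb1 and 34.8, 35.1 and 38.7 CPM in NF with vehicle (log2 fold change 1.57 ± 0.20). All 4 genes kept the same order of groups, with NF with TGFb1 in the middle.

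Lmod1, an actin nucleator of smooth muscle, stayed low with TGFb1. It was at 45.84, 37.42 and 40 CPM in CAF, 0.0888, 0.2182 and 0.3139 CPM in NF with TGFb1 and 0.0331, 0.0449 and 0.1144 CPM in NF with vehicle. Mrvi1, a substrate of cGMP-dependent kinase, was at 8.821 to 13.58 CPM in CAF and below 0.3 CPM in both NF groups. The exceptions were Smtn, smoothelin, at 105, 83.9 and 70.6 CPM in CAF against 271, 240 and 221 CPM in NF with TGFb1 (log2 fold change -1.49 ± 0.14), and the smaller differences of Csrp1 (-0.19) and Pdlim7 (-0.38). The promoter of Myl9 is shown because it was one of 2 among 15 members with a promoter sequence that held a CArG box, the letters bound by serum response factor. Searched on both strands from 250 bases before to 50 bases after the RefSeq start, the box was in 13.3% of these members and in 1.66% of 10426 tested genes with a promoter. The capitals mark the box, which begins 161 bases before the start, in GRCm38.p6 at chr2:156775214-156775513 on the plus strand.
Myl9: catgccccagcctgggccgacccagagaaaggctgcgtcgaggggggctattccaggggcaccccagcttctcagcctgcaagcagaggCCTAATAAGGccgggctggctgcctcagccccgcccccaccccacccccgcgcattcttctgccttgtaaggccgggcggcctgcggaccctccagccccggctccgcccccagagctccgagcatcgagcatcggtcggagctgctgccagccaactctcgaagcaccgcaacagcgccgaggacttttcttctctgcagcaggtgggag

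Matrix genes were mostly higher in CAF. Of 22 collagen chains 16 were higher and 4 lower than in NF with TGFb1, with a median log2 fold change of 1.14. Summed over the list, the chains took 57730 to 74500 CPM in CAF, 25540 to 33580 CPM in NF with TGFb1 and 9678 to 13490 CPM in NF with vehicle. Col1a1, the main chain of fibrillar type I collagen, was at 18400, 18700 and 22300 CPM in CAF, 8140, 9120 and 11400 CPM in NF with TGFb1 and 2210, 2240 and 2980 CPM in NF with vehicle (log2 fold change 1.05 ± 0.16, adjusted p = 1.55e-05). NF with TGFb1 was again in the middle without overlap. Col12a1, a fibril-associated collagen, was at 4340, 3750 and 3740 CPM in CAF, 181, 214 and 229 CPM in NF with TGFb1 and 61.4, 65.4 and 61.6 CPM in NF with vehicle (log2 fold change 4.24 ± 0.15). Col11a1, a minor fibrillar chain, was at 101, 102 and 120 CPM in CAF and at 0.764 to 0.799 CPM in NF with TGFb1 (log2 fold change 7.10 ± 0.21). The 3 chains of the beaded-filament collagen VI, Col6a1, Col6a2 and Col6a3, were higher by 2.08, 2.38 and 1.93, and their log2 fold changes for TGFb1 over vehicle were only -0.26, -0.21 and 0.56.

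The 4 chains that were lower in CAF were Col5a3, Col7a1, Col18a1 and Col27a1, and for all 4 NF with TGFb1 was the highest group. Col5a3, a minor type V chain, was at 147, 225 and 391 CPM in CAF, 1510, 1340 and 1740 CPM in NF with TGFb1 and 130, 133 and 198 CPM in NF with vehicle (log2 fold change -2.59). Col7a1, of anchoring fibrils, was at 8.55, 12.1 and 12.8 CPM in CAF, 49.6, 28.9 and 42.5 CPM in NF with TGFb1 and 4.73, 4.38 and 3.74 CPM in NF with vehicle (log2 fold change -1.86 ± 0.20). For both genes CAF lay nearer to vehicle than to TGFb1.

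Of 22 genes of collagen processing and crosslinking 14 were higher and 5 lower. Loxl2, a lysyl oxidase that crosslinks collagen, was at 644, 606 and 585 CPM in CAF, 3.62, 3.66 and 3.9 CPM in NF with TGFb1 and 0.662, 1.33 and 1.85 CPM in NF with vehicle (log2 fold change 7.36 ± 0.27). Lox, of the same enzyme family, differed far less: 1310, 1330 and 1700 CPM in CAF, 974, 946 and 1090 CPM in NF with TGFb1 and 227, 243 and 244 CPM in NF with vehicle (log2 fold change 0.53 ± 0.14). TGFb1 thus brought Lox close to the CAF level and left Loxl2 at a small fraction of it. P4ha3, a prolyl hydroxylase, and Adamts2, which trims procollagen, were higher by 2.19 ± 0.19 and 2.75 ± 0.24.

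Of 26 matrix glycoproteins and proteoglycans 16 were higher and 7 lower, with both directions reaching large differences. Thbs2, an antiangiogenic thrombospondin, was at 3910, 3790 and 4090 CPM in CAF, 236, 250 and 143 CPM in NF with TGFb1 and 729, 617 and 406 CPM in NF with vehicle (log2 fold change 4.23 ± 0.30). Its relative Thbs1 was at 8190, 4860 and 1790 CPM in CAF against 437, 427 and 397 CPM in NF with TGFb1, with a wide spread within CAF but no overlap. Cthrc1, a secreted protein of matrix-making fibroblasts, was at 53.3, 54.6 and 31.5 CPM in CAF and at no more than 0.0262 CPM in NF with TGFb1. Fbln5, an elastic fibre protein, was higher by 2.90 ± 0.15. Postn, periostin, was lower: 171, 203 and 554 CPM in CAF, 2630, 2890 and 3670 CPM in NF with TGFb1 and 310, 192 and 264 CPM in NF with vehicle (log2 fold change -3.31 ± 0.49). Cilp, a matrix protein first known from cartilage, was at 2.51, 1.1 and 2.01 CPM in CAF, 26.3, 23.7 and 41.9 CPM in NF with TGFb1 and 0.0674 to 0.215 CPM in NF with vehicle (log2 fold change -3.99 ± 0.48). Dcn, decorin, was at 18.7, 10.3 and 21.2 CPM in CAF, 165, 110 and 112 CPM in NF with TGFb1 and 457, 334 and 400 CPM in NF with vehicle, so both CAF and treated NF lay below vehicle. Of 20 tested proteases and inhibitors 11 were higher and 5 lower. Mmp2, a gelatinase, was higher by 2.38 ± 0.21 and Mmp19, another metalloproteinase, by 2.56 ± 0.17, while the other gelatinase Mmp9 was lower by -1.82 ± 0.15 and the inhibitors Timp1 and Timp3 by -1.28 ± 0.24 and -1.53 ± 0.22.

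**Figure D3:**
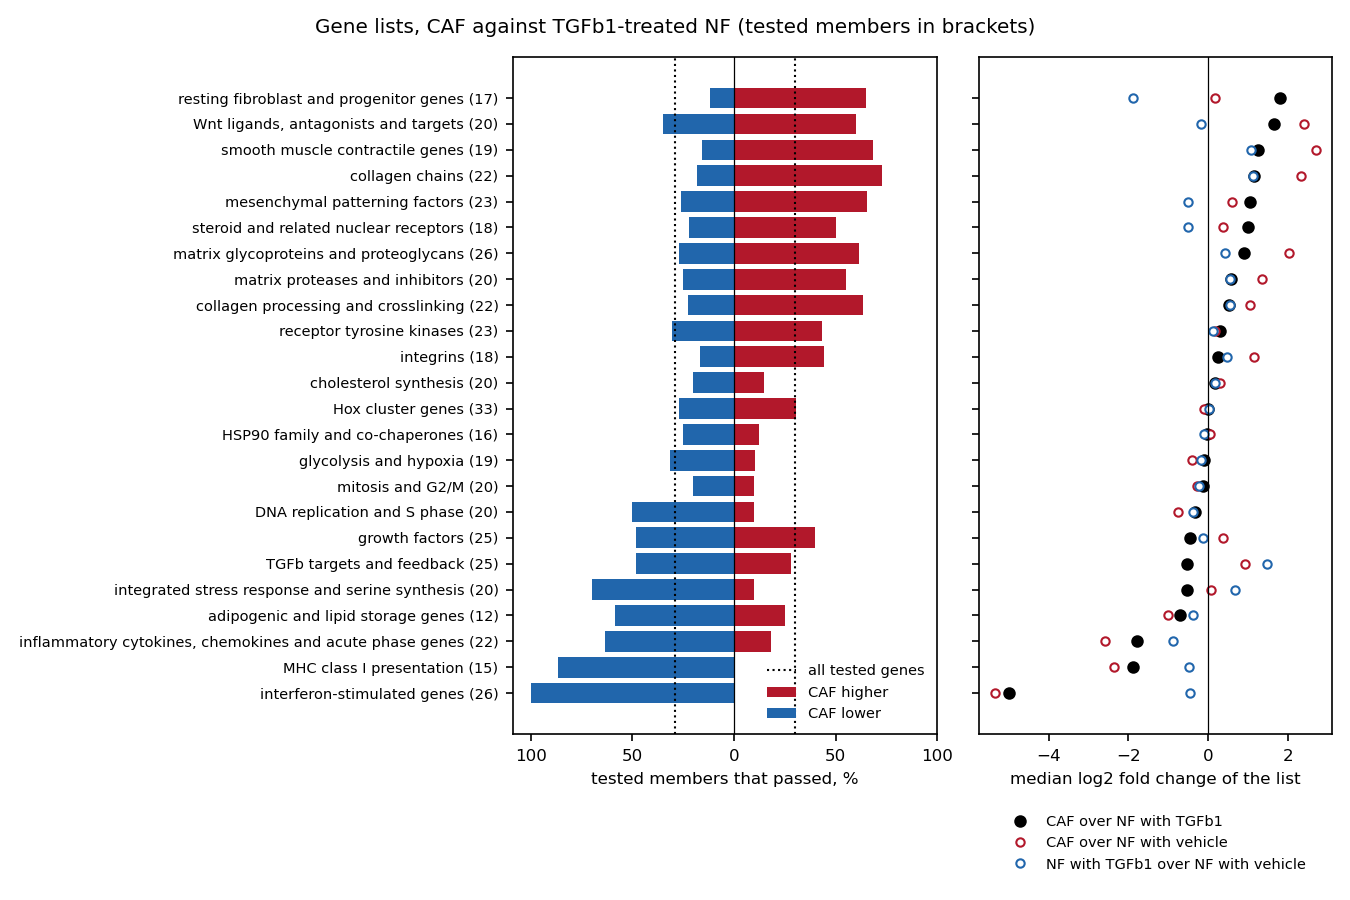
Left, the percent of tested members of each list that were higher (red) or lower (blue) in CAF than in NF with TGFb1, with dotted lines at the shares of all tested genes (30% and 28.9%). Right, the list's median log2 fold change for CAF over NF with TGFb1 (filled), CAF over NF with vehicle (red) and NF with TGFb1 over NF with vehicle (blue); interferon-stimulated genes stand lowest and resting fibroblast genes highest.

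Interferon-stimulated genes, which cells switch on after interferon, were all lower in CAF. Of 26 members 26 passed, each by more than 2-fold, with a median log2 fold change of -4.98. The median was -5.35 for CAF over NF with vehicle and -0.46 for NF with TGFb1 over NF with vehicle, where 7 members were lower. Irf9, a transcription factor of the interferon response, was at 19, 16.1 and 20.5 CPM in CAF, 99.5, 94.1 and 91.5 CPM in NF with TGFb1 and 106, 106 and 115 CPM in NF with vehicle (log2 fold change -2.36 ± 0.12, adjusted p = 1.43e-11). Cxcl10, a chemokine for T cells, was at 1.34, 1.12 and 1.78 CPM in CAF, 346, 299 and 143 CPM in NF with TGFb1 and 484, 381 and 501 CPM in NF with vehicle (log2 fold change -7.52 ± 0.41). For both genes the treated NF libraries lay below the vehicle ones, and CAF was far below both. The sensors of viral RNA Ifih1 and Ddx58 were lower by -5.10 ± 0.27 and -2.32 ± 0.13, with Ifih1 at 4.32, 3 and 3.93 CPM in CAF and 154, 120 and 118 CPM in NF with TGFb1. Mx1, an antiviral GTPase, was at 0.235, 0.259 and 0.287 CPM in CAF, 33.1, 28.2 and 18.9 CPM in NF with TGFb1 and 95.3, 62.2 and 88.8 CPM in NF with vehicle. The smallest difference of the list was that of Ifit2, at -1.33 ± 0.24.

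The promoters of 3 members are shown because their list was the one that moved together without exception. The letters GAAA, NN (any bases) and GAAA in one run, the core of the interferon-stimulated response element, were searched on both strands in the same 300 bases. They were in 12 of 19 members with a promoter sequence (63.2%) and in 393 of 10426 tested genes (3.77%), as a description of letters and not of binding. The 3 printed are those with the smallest p among members that hold a match, and capitals mark it. In GRCm38.p6 and RefSeq's starts they lie at chr5:92348840-92349139 for Cxcl10, chr2:62646206-62646505 for Ifih1 and chr4:40239776-40240075 for Ddx58, all on the minus strand. The match begins 213 bases before the start in Cxcl10, and 32 and 2 bases after it in Ifih1 and Ddx58.
Cxcl10: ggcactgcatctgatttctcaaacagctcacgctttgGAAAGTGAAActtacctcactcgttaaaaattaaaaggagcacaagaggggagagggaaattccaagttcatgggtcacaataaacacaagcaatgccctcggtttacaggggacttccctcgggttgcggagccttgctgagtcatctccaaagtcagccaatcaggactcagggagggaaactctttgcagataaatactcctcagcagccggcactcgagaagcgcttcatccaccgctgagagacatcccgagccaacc
Ifih1: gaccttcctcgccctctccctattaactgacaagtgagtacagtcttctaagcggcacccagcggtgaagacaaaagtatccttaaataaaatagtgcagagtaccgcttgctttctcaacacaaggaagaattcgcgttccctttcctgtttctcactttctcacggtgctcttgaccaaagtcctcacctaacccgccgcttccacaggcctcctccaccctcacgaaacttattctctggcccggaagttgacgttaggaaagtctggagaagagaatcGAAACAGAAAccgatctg
Ddx58: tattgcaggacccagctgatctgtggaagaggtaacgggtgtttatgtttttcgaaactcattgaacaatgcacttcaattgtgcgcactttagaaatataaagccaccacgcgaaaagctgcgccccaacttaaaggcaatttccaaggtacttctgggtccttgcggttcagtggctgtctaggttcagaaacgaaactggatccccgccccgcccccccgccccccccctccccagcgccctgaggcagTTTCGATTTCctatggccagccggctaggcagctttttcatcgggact

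Antigen presentation followed the same direction, with 13 of 15 MHC class I genes lower, none higher and a median log2 fold change of -1.89. H2-K1, a class I heavy chain, was at 113, 91.2 and 96.8 CPM in CAF, 625, 599 and 580 CPM in NF with TGFb1 and 677, 622 and 670 CPM in NF with vehicle (log2 fold change -2.59 ± 0.14). B2m, the shared light chain, was at 268, 218 and 228 CPM in CAF against 973, 852 and 824 CPM in NF with TGFb1 (-1.89), and Psmb8, an immunoproteasome subunit, was lower by -2.64 ± 0.15. Class I heavy chains are near copies of each other, so reads could be split among them. H2-T23 and Tap2 did not pass (adjusted p = 0.0557 and 0.108), but did with the replicate block (0.037 and 0.0153). Of 22 tested inflammatory cytokines, chemokines and acute phase genes 14 were lower and 4 higher. C3, the central complement protein, was at 27.9, 14.7 and 18 CPM in CAF, 559, 568 and 660 CPM in NF with TGFb1 and 1240, 940 and 1300 CPM in NF with vehicle (log2 fold change -4.87 ± 0.32). Cxcl5, a neutrophil chemokine, was at 4.19, 4.79 and 2.44 CPM in CAF, 38.4, 62.9 and 66 CPM in NF with TGFb1 and 204, 308 and 479 CPM in NF with vehicle. In C3 and Cxcl5 the treated NF libraries lay below vehicle and above CAF. Cxcl14 went the other way, at 115, 102 and 45.4 CPM in CAF and at most 0.0785 CPM in NF with TGFb1.

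Of 17 tested genes of resting fibroblasts and progenitors, 8 were lower and none higher in NF with TGFb1 than in NF with vehicle, while 11 were higher in CAF than in NF with TGFb1 and 2 lower. The median log2 fold change of CAF over NF with TGFb1 was 1.81. The median was 0.16 for CAF over NF with vehicle, where 8 members were higher and 8 lower. It was -1.89 for NF with TGFb1 over NF with vehicle. Pdgfra, the PDGF receptor that marks most fibroblasts, was at 853, 786 and 923 CPM in CAF, 268, 249 and 273 CPM in NF with TGFb1 and 752, 625 and 917 CPM in NF with vehicle (log2 fold change 1.70 ± 0.14, adjusted p = 6.45e-09). The CAF and vehicle libraries overlapped and the treated libraries stood apart below them. Ly6a, the stem cell antigen Sca-1, was at 102, 105 and 135 CPM in CAF, 25.6, 31.4 and 24.2 CPM in NF with TGFb1 and 202, 207 and 233 CPM in NF with vehicle (log2 fold change 2.07 ± 0.19). Ogn, a small leucine-rich proteoglycan, was at 188, 215 and 321 CPM in CAF, 5.15, 4.6 and 6.17 CPM in NF with TGFb1 and 37.2, 25.5 and 51.2 CPM in NF with vehicle. Thy1, the surface antigen CD90, was at 201, 187 and 181 CPM in CAF and at most 0.539 CPM in any NF library (log2 fold change over NF with TGFb1 10.73 ± 0.34). Its level was thus a difference between the lines that TGFb1 did not narrow. Of 12 tested adipogenic and lipid storage genes 7 were lower and 3 higher. Lpl, lipoprotein lipase, was higher, at 892, 1060 and 1210 CPM in CAF, 112, 130 and 157 CPM in NF with TGFb1 and 274, 251 and 368 CPM in NF with vehicle, while Cebpa and Dgat2 were lower by -2.83 ± 0.29 and -2.35 ± 0.16.

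**Figure D4:**
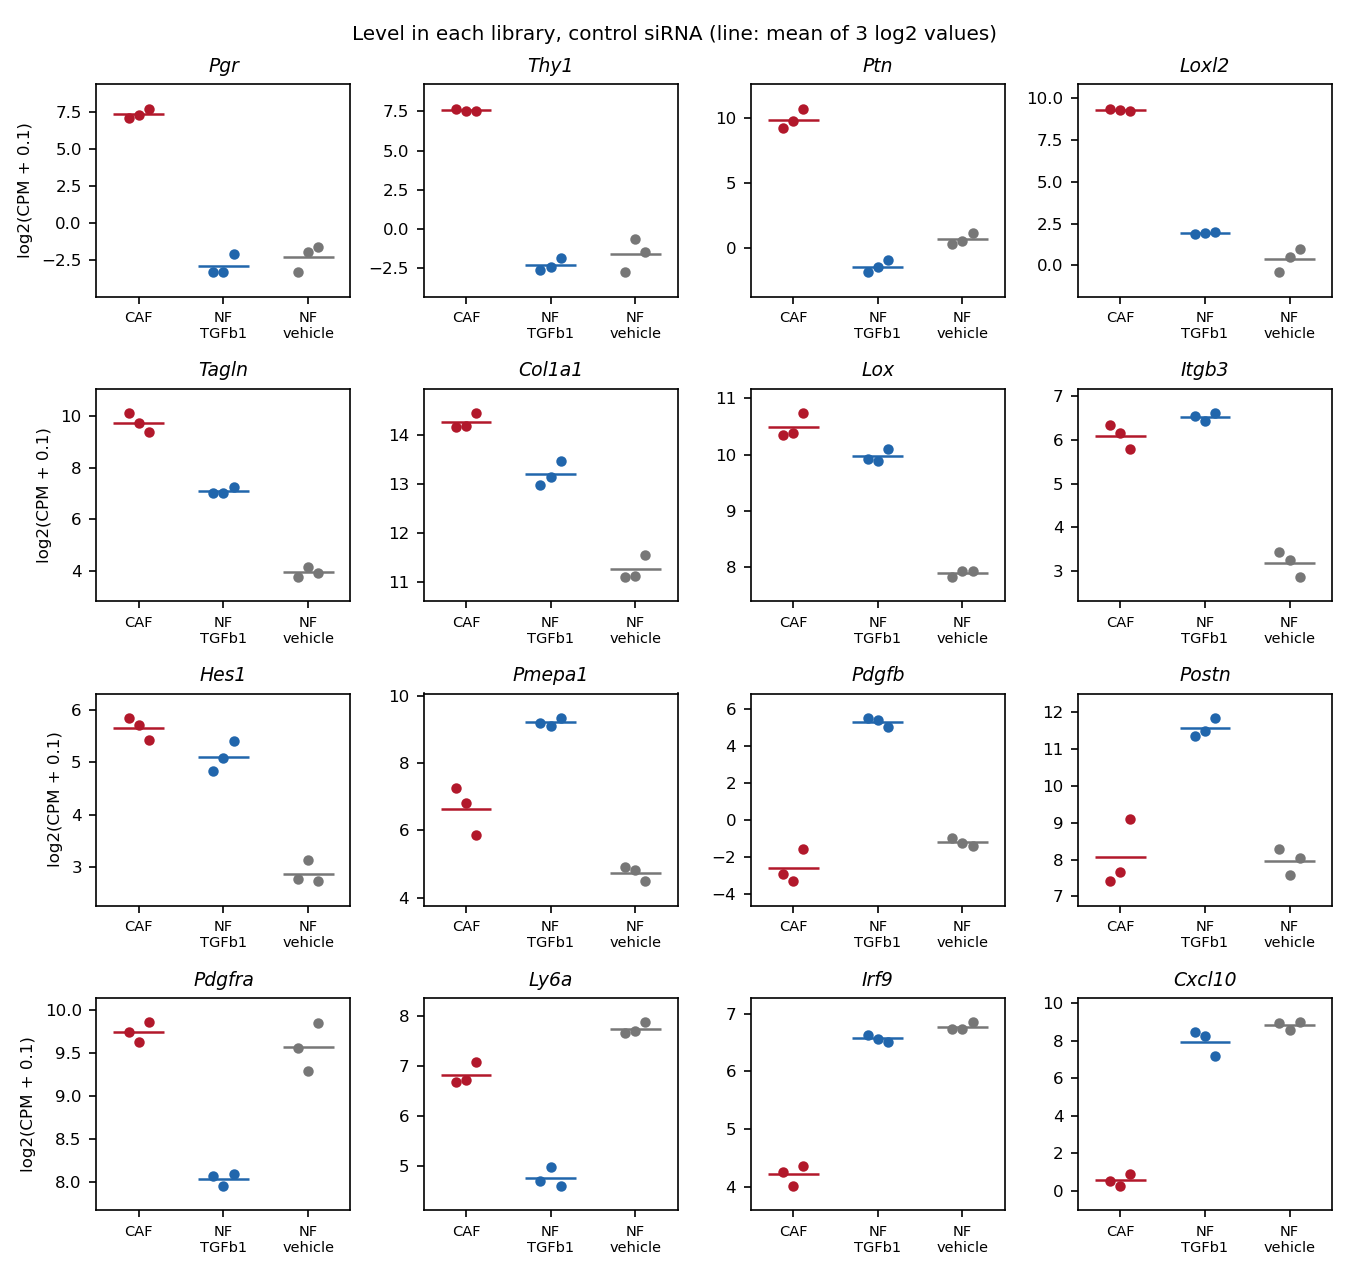
Level of 16 genes in each library as log2(CPM + 0.1), with CAF, NF with TGFb1 and NF with vehicle from left to right and a line at the mean of the 3 log2 values. Tagln and Col1a1 step down from left to right, Pmepa1 and Postn peak in NF with TGFb1, Pdgfra and Ly6a dip there, and Irf9 and Cxcl10 are low in CAF alone.

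Of 18 tested nuclear receptors 9 were higher and 4 lower in CAF. Pgr, the progesterone receptor (ENSMUSG00000031870, GRCm38 chr9:8899833-8968611), was at 140, 161 and 210 CPM in CAF, 0, 0 and 0.131 CPM in NF with TGFb1 and 0, 0.157 and 0.229 CPM in NF with vehicle (log2 fold change 12.10 ± 0.49). Esr1, the oestrogen receptor, was at 77.43, 92.51 and 131.3 CPM in CAF against 8.66, 10.11 and 10.54 CPM in NF with TGFb1 (log2 fold change 3.36 ± 0.19). Nr2f1, an orphan receptor, was lower, at 0.0294, 0.173 and 0.172 CPM in CAF and 17.3, 18.2 and 20 CPM in NF with TGFb1. Of 23 tested mesenchymal patterning factors 15 were higher and 6 lower. Tbx5, a limb and heart T-box factor, was at 31.9, 30.1 and 33.1 CPM in CAF and had a count in only 1 of the 3 NF libraries with TGFb1. Msx2 was at 14.6, 10.7 and 9.89 CPM in CAF against 0.155, 0.2 and 0.183 CPM in NF with TGFb1. Prrx1 and Twist1, which mark mesenchyme, were higher by 1.18 ± 0.19 and 1.34 ± 0.09. Of 33 tested Hox genes 10 were higher and 9 lower, shares near the 30% and 28.9% of all genes. Among them Hoxc8 was at 80.6, 81.4 and 78.8 CPM in CAF against 39.4, 31.8 and 32 CPM in NF with TGFb1, and Hoxd9 at 3.97, 2.42 and 3.46 CPM in CAF against 17.1, 19.5 and 17.1 CPM in NF with TGFb1. Hoxb13 was at no more than 0.115 CPM in CAF against 4, 5.66 and 5.65 CPM in NF with TGFb1.

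Secreted ligands moved in both directions, with 10 of 25 tested growth factors higher and 12 lower. Pdgfb, a PDGF ligand (GRCm38 chr15:79995874-80014977), was at 0.0294, 0 and 0.229 CPM in CAF, 45.9, 41.7 and 32.3 CPM in NF with TGFb1 and 0.414, 0.314 and 0.267 CPM in NF with vehicle (log2 fold change -8.75 ± 0.45, adjusted p = 1.39e-11). The high Pdgfb level was seen only with the cytokine, and the CAF libraries were below the vehicle ones. Vegfc, a lymphangiogenic factor, was lower at 7.67, 6.14 and 6.09 CPM in CAF against 80.5, 97.4 and 88.2 CPM in NF with TGFb1. Igf1 was higher at 117, 120 and 245 CPM in CAF against 1.29, 0.964 and 2.49 CPM in NF with TGFb1, and Fgf10, a ligand for epithelial receptors, by 3.73 ± 0.17. Ptn, the heparin-binding pleiotrophin, was at 592.8, 860.3 and 1664 CPM in CAF, 0.1776, 0.2546 and 0.4186 CPM in NF with TGFb1 and 1.125, 1.348 and 2.174 CPM in NF with vehicle (log2 fold change 11.86 ± 0.61). Ptn was also lower in NF with TGFb1 than in NF with vehicle (log2 fold change over vehicle -2.47, adjusted p = 0.00886). Of 23 tested receptor tyrosine kinases 10 were higher and 7 lower, beside 30% higher and 28.9% lower among all genes. The list's median log2 fold change was 0.30. Ret, one of the lower members, was at 1.2, 1.70 and 1.17 CPM in CAF, 20.8, 19.8 and 18.2 CPM in NF with TGFb1 and 3.38, 3.93 and 2.29 CPM in NF with vehicle.

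Of 20 tested Wnt genes 12 were higher and 7 lower, 19 of 20 in all. The antagonists Dkk3 and Dkk2 were high in CAF, Dkk3 at 158, 106 and 102 CPM against 0.0666, 0.145 and 0.183 CPM in NF with TGFb1 and Dkk2 at 388.1, 270 and 155 CPM in CAF against 0.6218, 0.4001 and 0.5494 CPM in NF with TGFb1. Lef1, the nuclear partner of beta-catenin, was at 1.70, 2.36 and 1.51 CPM in CAF, 79.6, 59.4 and 65.8 CPM in NF with TGFb1 and 34, 25.6 and 25.5 CPM in NF with vehicle (log2 fold change -5.22). Wnt11, a ligand, was at 0.134 to 0.404 CPM in CAF, 9.07 to 11.2 CPM in NF with TGFb1 and 0.0827 to 0.225 CPM in NF with vehicle. Of 18 integrins 8 were higher, all by more than 2-fold, and 3 lower. In all 61.1% passed, near the 58.9% of all genes, but all genes split more evenly, into 30% higher and 28.9% lower. The collagen-binding chains Itga2 and Itga11 were higher by 3.47 ± 0.26 and 2.15 ± 0.31, and the fibronectin receptor chain Itga5 was lower, at 634, 611 and 487 CPM in CAF against 1190, 1240 and 1240 CPM in NF with TGFb1.

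Of 20 genes of the integrated stress response and serine synthesis 14 were lower and 2, Atf5 and Vldlr, higher. Atf4, the factor that drives the response, was at 344, 316 and 370 CPM in CAF, 651, 645 and 666 CPM in NF with TGFb1 and 356, 405 and 380 CPM in NF with vehicle (log2 fold change -0.93 ± 0.08). CAF and vehicle libraries overlapped and the treated libraries stood above both. Slc7a11, the cystine transporter, was lower by -3.02 and the serine enzymes Phgdh and Shmt2 by -0.92 ± 0.10 and -0.78 ± 0.08. Of 19 tested glycolysis and hypoxia genes 6 were lower and 2 higher, so 42.1% passed, below the share of all genes. The list's median log2 fold change was -0.11. Its lower members included Pfkp (-2.02), the glucose transporter Slc2a1 (-1.12 ± 0.10) and Hk2 (-1.12 ± 0.12). Of 20 DNA replication genes 10 were lower and 2 higher (13 lower and 2 higher with the replicate block). Without the block 60% of the list passed, near the 58.9% of all genes. The passing members were mostly lower, whereas all genes split into 28.9% lower and 30% higher. None of the list passed by more than 2-fold. Of 20 mitosis genes 4 were lower and 2 higher (8 lower and 2 higher with the replicate block), so 30% passed. Cholesterol synthesis had 3 higher and 4 lower of 20 (6 and 5 with the replicate block), so 35% passed without the block. Of 16 HSP90 family and co-chaperone genes 2 were higher and 4 lower, so 37.5% passed. Hsp90aa1 was at 995, 926 and 726 CPM in CAF against 671, 606 and 543 CPM in NF with TGFb1 (log2 fold change 0.54 ± 0.30, adjusted p = 0.13), and passed only in a fit of the 6 libraries alone (adjusted p = 0.00981). Hsp90ab1 was at 2536, 2395 and 2370 CPM in CAF against 3782, 3448 and 3120 CPM in NF with TGFb1 (log2 fold change -0.50 ± 0.20, adjusted p = 0.0365), a call lost when any library but NF with TGFb1 replicate 3 was left out (adjusted p 0.0552 to 0.11).

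Of the 12 largest rises, 7 had no count in any NF library with TGFb1. With a floor of 3 counts over that group, Frem1, a matrix protein of basement membranes (GRCm38 chr4:82897920-83052339), was at least 1100-fold higher in CAF, at 26.29, 21.25 and 22.54 CPM. Aldh1a7, an aldehyde dehydrogenase with near-identical relatives, was at least 899-fold higher, Mfap2, a microfibril protein, at least 863-fold, Mab21l1 735-fold, Tmem26 700-fold, Dgkk 542-fold and Scg2 516-fold, each as a lower bound. Among passing, non-overlapping genes with at least 5 CPM in the higher group, some differed from vehicle in opposite directions, both by more than 2-fold. In 82 CAF was higher and NF with TGFb1 lower than vehicle, and in 47 the reverse held. Over all 15230 tested genes, 15% were higher in CAF and 4.39% lower in NF with TGFb1, each over 2-fold against vehicle. For the reverse the shares were 10.6% and 4.75%. The counts are a description, since the vehicle libraries stand in both differences. The set of 82 includes Frem1, Mfap2 and Tmem26, whose vehicle levels were at most 0.09535 CPM. Scg2, a granin, varied most within CAF, at 2.072, 3.978 and 27.83 CPM. Rpl39l, Alx4 and Cd55 had a single count in NF with TGFb1, with ratios of 7430 (counting interval 1330 to 293000), 5310 (953 to 210000) and 5300 (951 to 209000). Rpl39l is a near copy of another ribosomal protein gene, so its reads are uncertain.

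The largest falls included genes that both NF groups expressed and genes that TGFb1 induced. Runx3, a RUNT-family transcription factor, was at 0.5437, 0.173 and 0.9932 CPM in CAF, 141, 138.7 and 136.8 CPM in NF with TGFb1 and 82.98, 82.03 and 71.28 CPM in NF with vehicle (log2 fold change -7.84 ± 0.25). Trim30a, Gbp5 and Slfn8, from families known for interferon responses, were lower by -8.32 ± 0.32, -8.04 ± 0.44 and -8.04 ± 0.35. Wasf3, an actin regulator, and Hunk, a kinase, were lower by -8.39 ± 0.35 and -8.16 ± 0.33. Among genes that TGFb1 raised, Aldh1a3, a retinoic acid enzyme, was at 0.0441, 0.173 and 0.1719 CPM in CAF, 33.18, 28.24 and 38.67 CPM in NF with TGFb1 and 0.844, 0.6514 and 0.3623 CPM in NF with vehicle. Pkp1, a desmosomal plakophilin, was at 0.2057, 0.0865 and 0.9932 CPM in CAF, 94.64, 90.27 and 87.9 CPM in NF with TGFb1 and 8.076, 8.782 and 3.871 CPM in NF with vehicle. In both, each CAF library was below each vehicle library while TGFb1 moved NF the other way.

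For some genes that differed between CAF and NF with vehicle, the 95% interval of the difference from NF with TGFb1 lay within 2-fold, which does not show equal levels. Gpr153, an orphan receptor, was at 132.2, 116.8 and 105.3 CPM in CAF, 114.2, 134.3 and 174.1 CPM in NF with TGFb1 and 6.206, 6.536 and 7.38 CPM in NF with vehicle (log2 fold change -0.25, adjusted p = 0.359). Itgb3, the beta chain of the vitronectin receptor, was at 81.43, 71.75 and 55.7 CPM in CAF, 93.13, 85.96 and 97.63 CPM in NF with TGFb1 and 10.81, 9.388 and 7.246 CPM in NF with vehicle (log2 fold change -0.41, 95% interval -0.81 to -0.00, adjusted p = 0.0793). Its CAF libraries lay below the treated NF libraries without overlap, and it passed as lower with the 6 libraries alone (adjusted p = 0.0376) and without CAF replicate 1 (0.0408). Rasl11a, a small GTPase-like gene, was below vehicle in both groups: 8.096, 8.879 and 10.2 CPM in CAF, 8.083, 8.874 and 10.28 CPM in NF with TGFb1 and 39.78, 48.76 and 53.85 CPM in NF with vehicle (log2 fold change -0.00, adjusted p = 0.992). Hes1, a Notch target, was higher at 57.64, 52.44 and 42.8 CPM in CAF against 28.33, 33.77 and 42.43 CPM in NF with TGFb1 (adjusted p = 0.023), a call lost without CAF replicate 1 or 2 or NF with TGFb1 replicate 1 or 2 (adjusted p 0.0597 to 0.121). Mitf, a transcription factor, was lower by -0.71 (adjusted p = 8.51e-05) with the whole interval inside 2-fold.

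The contrast was then read in the knockdown libraries, none of which it compares. These came from the same lines, CAF1 and NF1, and shared its fit, with the same gene filter and spread estimate. Agreement is thus a repeat within these lines and not an independent test. With siHsp90aa1 60% of genes passed between CAF and NF with TGFb1 (30.7% higher and 29.3% lower), and with siHsp90ab1 57.5% (29.4% higher and 28.1% lower). Of the 2215 genes higher in CAF by more than 2-fold under the control siRNA, 1985 (89.6%) were higher with siHsp90aa1 and 6 (0.271%) lower, and 2113 (95.4%) were higher with siHsp90ab1 and none lower. Of the 1523 lower genes, 1355 (89%) were lower with siHsp90aa1 and 1378 (90.5%) with siHsp90ab1, and 0 passed as higher. All 26 interferon-stimulated genes were lower with siHsp90aa1 and 25 with siHsp90ab1. Tagln averaged 1172 CPM in CAF against 74.21 CPM in NF with TGFb1 under siHsp90aa1, and 939 CPM in CAF against 110.4 CPM in NF with TGFb1 under siHsp90ab1.

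The size of the difference itself changed in 832 genes with siHsp90aa1 (5.46%; 2.44% upward and 3.02% downward) and in 1 gene with siHsp90ab1 (0.00657%), Parp11 (0.84 ± 0.11, adjusted p = 0.0101). For siHsp90ab1, 438 genes had an unadjusted p under 0.05 and DESeq2 called 18. For siHsp90aa1 the replicate block called 1871 and DESeq2 1341. Of the contractile genes 8 had a higher CAF over NF fold with siHsp90aa1 and none a lower one, and of the integrated stress response genes 8 moved upward and none downward. Of the MHC class I and the inflammatory genes 6 each moved downward. Pdgfra averaged 951.1 CPM in CAF against 613.8 CPM in NF with TGFb1 under siHsp90aa1, and Ly6a 171.4 CPM in CAF against 217.3 CPM in NF with TGFb1, so that the Ly6a difference no longer passed there (log2 fold change -0.34, adjusted p = 0.113).

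**Figure D5:**
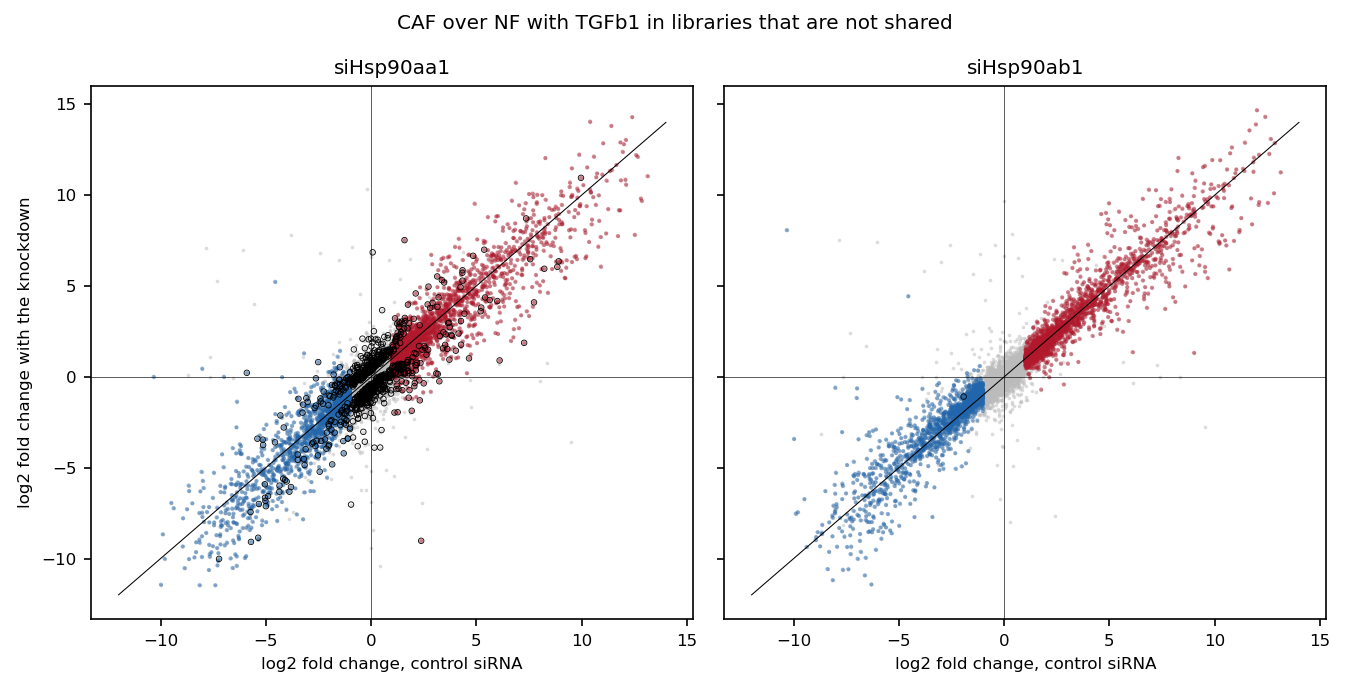
The log2 fold change of CAF over NF with TGFb1 with the control siRNA (x axis) against the same contrast in the siHsp90aa1 libraries (left) and the siHsp90ab1 libraries (right); coloured genes passed by more than 2-fold on the x axis, black rings mark genes whose difference changed, and the diagonal is equality. Rings are many on the left, where 832 genes changed, and 1 on the right.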

How the data were processed

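Per the labels' protocols, RNA came from cultured fibroblasts transfected with siRNA, and libraries were made with a stranded mRNA kit. Per the submitters' processing notes, reads were handled with STAR and Salmon on GRCm38; no version is stated in these notes. The authors' deposited values were estimated counts made with Salmon (10.9% not whole), and rounding moved none by more than 0.5. The deposited TPM values were kept as levels per length and entered no test. All columns were mapped to samples by name.

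Counts of all 21 libraries were fitted in 1 model with a coefficient per group, using edgeR 4.0.16 in R 4.3.3 (TMM factors, genes kept with a count of at least 10 by group and a total of at least 15, quasi-likelihood F test, Benjamini-Hochberg over 15230 of 45706 genes for each contrast alone). CPM values were computed here. The threshold was an adjusted p of 0.05. The median 95% interval of a log2 fold change extended 0.312 either way. The fit was tested on simulated data for the comparison of CAF with NF with TGFb1 over 15230 genes. It recovered 74% of 100 genes changed 2-fold and 87% of 100 changed 4-fold, and 4.17% of calls were false. Only these genes were changed, whereas 58.9% of genes passed in the data, so these rates need not hold there. Counting intervals and floors cover counting error only.

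The labels give the replicate number as a batch, so same-numbered samples are paired by label. Deviations from group means correlated at 0.2657, 0.0115 and 0.2407 for numbers 1, 2 and 3 over 9158 genes. Between unlike numbers the correlations ran from -0.2861 to 0.1702, the highest being CAF replicate 2 with NF with TGFb1 replicate 1. The fit without the block is the main one. Values with the replicate block stand beside several genes whose call it changed and beside the DNA replication, mitosis and cholesterol counts. Counts of the other lists are without the block, and several rose with it. Lower members went from 12 to 14 for TGFb targets, 14 to 15 for inflammatory genes and 6 to 7 for glycolysis. Alternatives were RLE size factors, DESeq2 1.42.0, 2 other low count filters, a fit of the 6 libraries alone, the block, and leaving out each library. Replicates differed by more than sampling noise, so none was counted as a duplicate.

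The members and lists were chosen with earlier results of these data known. Genes were named by 6 rules: the 12 largest rises and 12 largest falls among passing, non-overlapping genes with at least 5 CPM in the higher group; the 4 list members with the smallest p; the 8 TGFb1-raised genes furthest above CAF; the 8 genes with the largest difference between CAF and NF with vehicle whose interval against NF with TGFb1 stayed within 2-fold; the 8 largest differences with opposite directions from vehicle; and Hsp90aa1, Hsp90ab1, Hsp90b1 and Trap1. Other members are named as examples chosen after their values were seen, and some genes these rules pick are not reported here. Promoter sequences are RefSeq's on GRCm38.p6, and gene coordinates are GENCODE M21's on GRCm38.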

Additional observations from a re-analysis of the deposited data

Results flagged for a closer look

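In 25 of the named genes the difference between CAF and NF with TGFb1 itself changed with siHsp90aa1, by edgeR's test of that change at an adjusted p under 0.05. Values are the log2 fold change with siHsp90aa1 minus that with the control siRNA. The CAF excess grew for the contractile genes Tagln (1.30) and Cnn1 (1.15), for the matrix genes Loxl2 (1.36) and Col12a1 (0.69), for Itga2 (1.72) and for Hes1 (1.27). The CAF deficit shrank for Fstl3 (0.98), Bhlhe40 (0.89), Pfkp (0.46) and Atf4 (0.79), and the value was 1.43 for Itgb3 and 1.31 for Ldlrad4. The value was negative for Pdgfra (-1.07), Ly6a (-2.41), Fgf10 (-1.0) and Mmp19 (-0.96), which were higher in CAF under the control siRNA, and for Ccnb2 (-0.67). It was also negative for genes already lower in CAF: Cxcl5 (-2.44), Ccl5 (-1.64), Erap1 (-0.53), Cdt1 (-1.05), Mcm7 (-0.56), Bub1b (-0.57) and Mitf (-0.97), and for Cebpd (-1.37). Groups held 3 libraries, so no library was tested as an outlier.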

How the results depend on the processing

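The number of genes passing between CAF and NF with TGFb1 was 8243 to 8632 when 1 library was left out and 8072 to 9750 under the other alternatives, and the number over 2-fold was 3634 to 3808 and 2898 to 4063. Of 1718 values of named genes under alternatives, 1676 kept their direction and side of the threshold, 13 lost the call, 17 gained it and 12 changed sign. The sign changes were in genes near no difference. Rasl11a was 0.00 with RLE factors, DESeq2 or the 6 libraries alone, 0.02 with no filter, and -0.10 to 0.09 when 1 library was left out. Rgs5 was 0.00 with no filter and -0.48 to 0.43 with 1 library left out, and Cebpd was 0.00 with no filter and -0.33 to 0.24 with 1 library left out. With the replicate block the passing mitosis genes numbered 10 and the cholesterol genes 11, and no other list count outside the cell type markers moved by over 1.5 times. Among the markers, the endothelial count was 2 and 4 with the block. The immune count was 1, and 2 with the block, DESeq2 or the 6 libraries alone. The epithelial count was 2, and 1 to 5 under the alternatives, and the pericyte and glial counts of 1 were lost under several. The call of Notch3 was lost without CAF replicate 3 or NF TGFb1 replicate 1 or 2 and with the 6 libraries alone (0.54 to 1.01). The cause was not tested. Genes under about 1 CPM rest on few counts.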
